A study of Mus musculus with 6 samples.

Results

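This account covers 31 genes that mark astrocytes and radial glia, read in the newborn mouse striatum with and without deletion of Sp9 by Drd2-Cre. The genes were listed by symbol, and all 31 were found by Ensembl identifier among the 47062 genes of the deposited table. Total RNA came from the striatum, dissected with the subventricular zone, at postnatal day 0, in mice of a mixed C57BL/6J, 129S6 and CD1 background. The 3 control libraries came from Sp9Flox/Flox littermates without Cre, and the 3 mutant libraries from Drd2-Cre;Sp9Flox/Flox animals, so both groups carried floxed Sp9 on both chromosomes. Sp9 encodes a zinc finger transcription factor, and Drd2-Cre expresses the recombinase under control of the gene of the D2 dopamine receptor, a gene that marks indirect pathway projection neurons. No group carried Cre without the floxed alleles, so effects of the transgene and of the deletion cannot be told apart. The labels do not say whether a library is 1 animal, so each p-value reflects only how far these libraries differ from each other, which may be technical.

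Radial glia are the progenitors that line the embryonic ventricle, make neurons first and later turn into astrocytes. Newborn striatum is at the start of this second phase, when cells still express radial glia genes and begin to express genes of astrocyte work. That work includes uptake of glutamate and GABA, potassium and water balance at vessels, coupling through gap junctions, lipid transport and the supply of glutamine to neurons.

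Levels are given as FPKM, fragments scaled to transcript length and library size, and values are listed in the order of replicates 1, 2 and 3. Sp9 read 20.1, 19.0 and 17.3 in the controls and 8.37, 7.93 and 9.67 in the mutants (log2 difference -1.08, limma adjusted p = 0.0567). Which exons the floxed allele removes is not stated in the labels. The libraries held an estimated 16236644 to 19458346 fragments in genes. Control replicate 3 had an Xist FPKM of 0.0604 against 186 to 235 in the other 5 libraries, a level far below the rest. Of the 31 glial genes, 30 had a mean FPKM of at least 0.5 and were tested together with 16666 genes in all. Gjb6 lay below that level and was not tested.

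The levels of the 31 genes spanned a wide range. In the controls 17 genes had a mean FPKM of at least 10, 10 lay between 1 and 10, and 4 (Gfap, S100b, Hopx and Gjb6) lay below 1. Fabp7, the brain lipid-binding protein of radial glia, made up 40.5% of the summed FPKM of the 31 genes in the controls. It stood above 98.1% of the genes tested by mean FPKM. Apoe, Glul, Mt3, Ttyh1, Ndrg2 and Slc1a3 followed, with mean FPKM over the 6 libraries of 95.7, 71.9, 64.0, 57.7, 48.8 and 48.2. Ttyh1 lay above Ndrg2 and Slc1a3 in each of the 6 libraries, whereas the last pair differed by less than the spread between their libraries. At the other end stood Gfap with a mean of 0.664, S100b with 0.546 and Gjb6 with 0.0922, which mark mature astrocytes. Hopx, a radial glia gene, was also low, at 1.06. Low levels were not general to genes of maturing astrocytes, since Glul, Aldoc (25.5), Slc6a11 (23.8) and Aldh1l1 (15.7) are among these too.

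**Figure D1:**
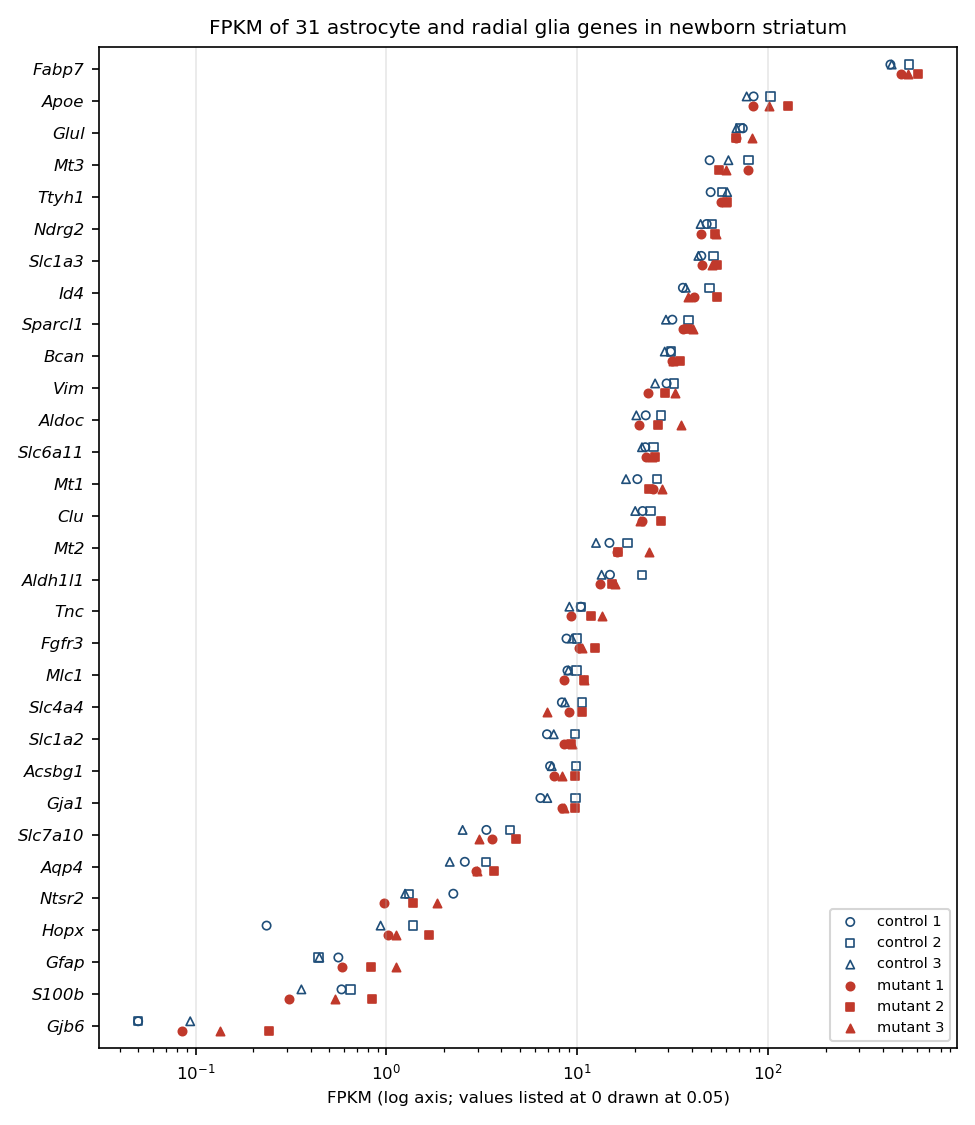
FPKM (log axis) of the 31 genes in each library, ordered by mean; open blue symbols are controls, filled red symbols are mutants, and the symbol shape gives the replicate. Fabp7 lies between 437 and 609 in every library, Gjb6 is listed at 0 in 2 controls (drawn at 0.05), and control and mutant symbols overlap for most genes.

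No glial gene passed the test of mutant against control. With limma over the 16666 genes, 0 of the 30 tested members had an adjusted p under 0.05, where 0.06% of all genes did, and the smallest adjusted p of a member was 0.858. Before adjustment, 0 members had a p under 0.05 with a higher level and 0 with a lower one, against 2.65% and 2.99% of all genes (5.65% in either direction). The estimates of 27 of the 31 genes were above 0 (49.9% of all genes were), and their median log2 difference was 0.12 (all genes: -0.000157). The estimates ran from -0.15 for Aldh1l1 to 0.48 for Hopx. These genes share libraries, so the number above 0 is not a count of separate observations. In bulk tissue, fewer cells of a type and less RNA per cell cannot be told apart.

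The intervals limit how large a difference could be. For 29 of 30 genes the 95% interval of the log2 difference lay inside a 2-fold change in either direction, and for 18 inside a 1.5-fold change. The exception at 2-fold was Hopx, with an interval from -0.47 to 1.42. These bounds hold on the scale of log2(FPKM + 0.5), which understates differences of low genes, so theirs may be too narrow. For Gfap the log2 difference was 0.44 on that scale and 0.72 ± 0.26 (SE) on the authors' count columns. All mutant libraries lay above all controls in 3 genes (Gfap, Fgfr3 and Bcan) and below them in 0, against 5.33% and 6.05% of all genes tested. Of these, Gfap had a control mean of 0.482, below the filter of 0.5, and was tested only because of its level in the mutants.

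**Figure D2:**
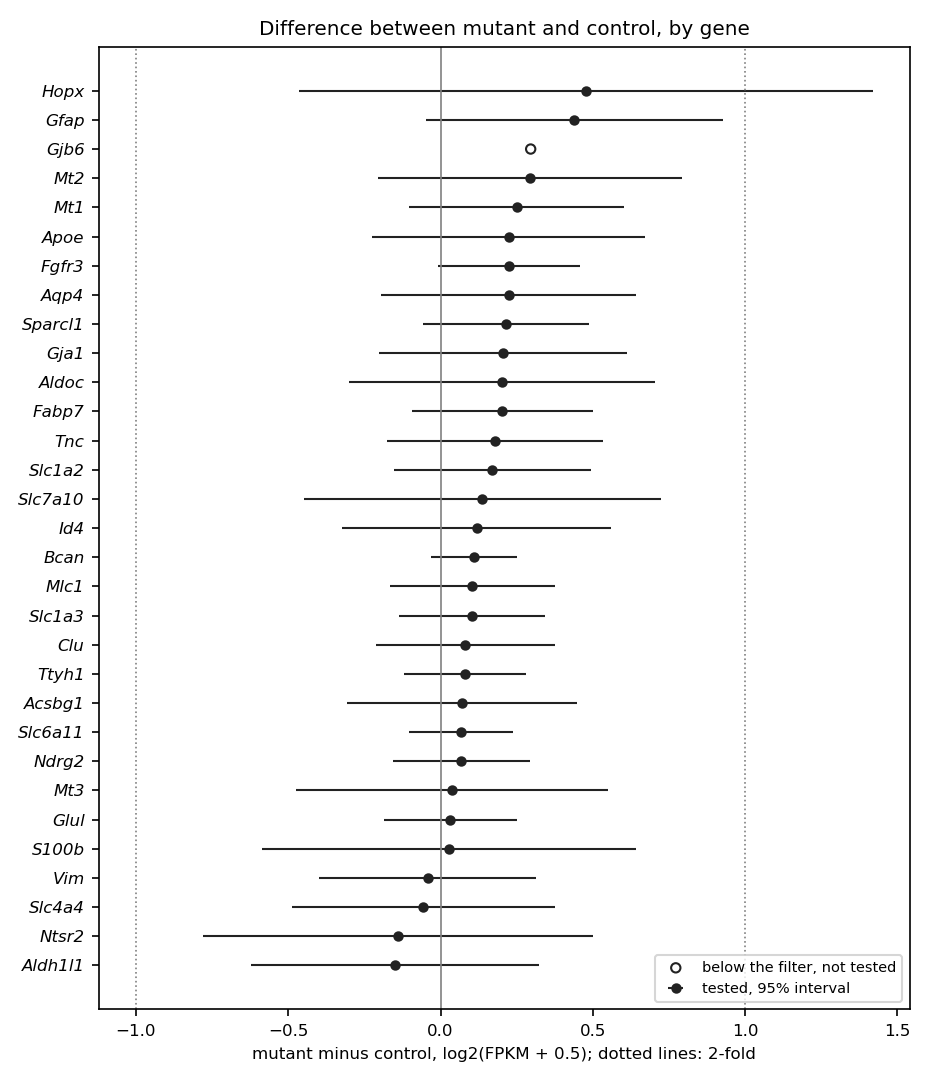
Mutant minus control on the log2(FPKM + 0.5) scale for each gene, with the 95% interval from limma; the open circle is Gjb6, which was not tested. Every interval includes 0, and only that of Hopx extends past a 2-fold change.

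The median of the 31 differences depended on single libraries. It was 0.21 without control replicate 2 or without mutant replicate 1, and 0.071 without mutant replicate 2. Without control replicate 1 it was 0.079 and without control replicate 3 it was 0.085. Without control replicate 2, 5 genes were higher at an unadjusted p under 0.05 (Fabp7, Gja1, Mt1, Slc1a2 and Sparcl1; 3.37% of all genes were), and without mutant replicate 1 it was 4 (Fgfr3, Gfap, Mlc1 and Tnc; 2.07%). None of them had an adjusted p under 0.05 with limma, and Gfap was again tested only because of its level in the mutants.

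Of the glutamate transporters, Slc1a3 was at a higher FPKM than Slc1a2 in every library. Slc1a3 encodes GLAST, the glutamate transporter of radial glia and young astrocytes, and had an FPKM of 44.6, 51.6 and 43.1 in the controls and of 45.0, 54.1 and 50.8 in the mutants. Slc1a2, which encodes GLT-1, the main glutamate transporter of mature astrocytes, had 6.94, 9.72 and 7.53 in the controls and 8.51, 9.25 and 9.40 in the mutants. The groups overlapped in both genes, and control replicate 2 held the highest Slc1a2 value of all 6 libraries. On the log2 scale Slc1a2 differed by 0.17 ± 0.13 (SE) and Slc1a3 by 0.10 ± 0.097, with limma adjusted p of 0.888 and 0.903. Slc6a11, the GABA transporter GAT-3, had means of 23.2 ± 1.68 and 24.3 ± 1.24 (SD, n = 3 each). Its 95% interval of the log2 difference, from -0.10 to 0.24, was among the narrowest of the set. Slc7a10, a transporter of small neutral amino acids such as D-serine, had 3.43 ± 0.977 and 3.80 ± 0.898, and overlaps Lrp3 on the other strand by 1088 bases. Lrp3 had a mean FPKM of 44.9, and whether the counting used strand is not given in the sources used here.

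In the set, 4 genes encode membrane proteins of the astrocyte endfoot or surface. Aqp4, the water channel of the endfoot, had an FPKM of 2.57, 3.33 and 2.15 in the controls and of 2.94, 3.66 and 2.97 in the mutants. Control replicate 2 again lay inside the range of the mutants. The log2 difference was 0.22 ± 0.17 (SE; limma adjusted p = 0.888). Mlc1, a membrane protein that works with ion channels at the endfoot, had means of 9.26 ± 0.566 and 10.04 ± 1.31 (SD, n = 3 each). Slc4a4, a sodium bicarbonate cotransporter, had 9.15 ± 1.22 and 8.86 ± 1.88, with its lowest value, 6.90, in mutant replicate 3. Ttyh1, a membrane protein of radial glia and astrocytes, had 56.1 ± 5.62 and 59.2 ± 2.20.

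The connexins of astrocyte gap junctions were at very different levels. Gja1, which encodes connexin 43, had an FPKM of 6.41, 9.80 and 6.96 in the controls and of 8.36, 9.68 and 8.54 in the mutants. The highest of all 6 values was in control replicate 2, and the log2 difference was 0.21 ± 0.16 (SE; limma adjusted p = 0.888). Gjb6, which encodes connexin 30, a later marker, was listed at 0 in control replicates 1 and 2 and had an estimated 1 fragment in control replicate 3. The mutants held an estimated 3, 3 and 4 fragments. These counts are too few for a fold change.

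Among the metabolic genes the levels of the groups lay close together. Fabp7 had an FPKM of 437, 547 and 444 in the controls and of 494, 609 and 538 in the mutants. The mutant mean was higher, at 547 ± 58.5 against 476 ± 61.5 (SD, n = 3 each), but control replicate 2 lay above mutant replicates 1 and 3. The log2 difference was 0.20 ± 0.12 (SE), with a 95% interval from -0.093 to 0.50 and a limma adjusted p of 0.888. Glul, glutamine synthetase, had 73.6, 71.1 and 68.2 in the controls and 68.0, 67.8 and 82.7 in the mutants. Only mutant replicate 3 stood apart, and the controls of Glul had the smallest coefficient of variation of the 31 genes, 3.84%. Transcript windows of 50 bases that Glul shares with other annotated genes, mainly the pseudogene Glns-ps1, made up 15% of its longest transcript.

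Aldh1l1, a folate enzyme used as a general astrocyte marker, had an FPKM of 14.8, 21.9 and 13.4 in the controls and of 13.2, 15.2 and 15.8 in the mutants. Its estimate was the lowest of the set on FPKM, at -0.15 ± 0.19 (SE; limma adjusted p = 0.934), and 0.0017 on the authors' count columns. Control replicate 2 held the high value, and without that library the FPKM estimate was 0.056. Aldoc, the brain aldolase, had 22.8, 27.4 and 20.4 in the controls and 21.2, 26.5 and 35.0 in the mutants. Its highest value was in mutant replicate 3 and the other 2 mutants lay inside the range of the controls. Acsbg1, an acyl-CoA synthetase, had means of 8.13 ± 1.49 and 8.53 ± 1.12, and Ndrg2, a protein of the NDRG family found mainly in astrocytes, 47.6 ± 3.32 and 49.98 ± 5.001 (SD, n = 3 each).

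Of the filament and calcium-binding genes, Gfap stood apart. Gfap encodes the intermediate filament of mature and reactive astrocytes. Its FPKM was 0.560, 0.441 and 0.445 in the controls and 0.588, 0.833 and 1.12 in the mutants. No mutant library overlapped the controls, although mutant replicate 1 lay just above control replicate 1. These levels rest on an estimated 30, 24 and 22 fragments in the controls and 33, 48 and 53 in the mutants. The control mean of 0.482 ± 0.0675 (SD, n = 3) lies below the filter of 0.5, so Gfap was tested only because of its level in the mutants. On FPKM its log2 difference was 0.44 ± 0.20 (SE; limma adjusted p = 0.860). On the authors' count columns it was 0.72 ± 0.26, with an unadjusted p of 0.0245 and a limma adjusted p of 0.670. In that fit 1 of 30 glial genes was higher at an unadjusted p under 0.05, against 3.24% of all genes, and none passed after adjustment (0.143% of all genes did). Gfap overlaps the noncoding gene Gm26668 on the other strand by 13577 bases, a gene with a mean FPKM of 1.37. The longest Gfap transcript shared no window of 50 bases with another annotated gene.

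Vim, the vimentin filament of radial glia, had an FPKM of 29.4, 32.0 and 25.6 in the controls and of 23.3, 29.0 and 32.6 in the mutants. The mutants spanned the range of the controls, and the estimate was -0.042 ± 0.14 (SE; limma adjusted p = 0.985). S100b, a calcium-binding protein of mature astrocytes, had means of 0.529 ± 0.151 and 0.563 ± 0.266 (SD, n = 3 each). It rests on an estimated 8 to 22 fragments per library and overlaps Dip2a on the other strand by 1731 bases, a gene with a mean FPKM of 22.7.

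The 2 receptors went different ways in their estimates. Fgfr3, a fibroblast growth factor receptor of radial glia and astrocytes, had an FPKM of 8.78, 9.99 and 9.38 in the controls and of 10.1, 12.4 and 10.6 in the mutants. The groups did not overlap, but control replicate 2 and mutant replicate 1 were close. The log2 difference was 0.22 ± 0.094 (SE), with the smallest unadjusted p of the set (0.0571) and a limma adjusted p of 0.858. On the authors' count columns the log2 difference of Fgfr3 was 0.14 and its limma adjusted p was 0.882. Ntsr2, a neurotensin receptor found on astrocytes, had 1.60 ± 0.555 and 1.40 ± 0.433 (SD, n = 3 each), with its highest value, 2.24, in control replicate 1.

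The set holds 2 nuclear regulators. Id4, an inhibitor of basic helix-loop-helix factors in progenitors and astrocytes, had an FPKM of 35.7, 49.3 and 37.0 in the controls and of 41.1, 53.8 and 37.8 in the mutants. In each group replicate 2 was the high library, and the log2 difference was 0.12 ± 0.18 (SE; limma adjusted p = 0.949). Hopx, a homeodomain-only protein of radial glia, had 0.235, 1.38 and 0.932 in the controls and 1.02, 1.67 and 1.12 in the mutants. Its low value in control replicate 1 was an estimated 3 fragments, against 11 to 23 in the other libraries. The estimate of 0.48 ± 0.38 was 0.091 without that library.

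The secreted and matrix genes were all estimated above 0. Bcan, the proteoglycan brevican of the extracellular matrix, had an FPKM of 30.8, 30.96 and 28.7 in the controls and of 31.3, 34.6 and 31.9 in the mutants. All mutants lay above all controls, but mutant replicate 1 was close to control replicate 2. The log2 difference was 0.11 ± 0.057 (SE; limma adjusted p = 0.885), and its interval, from -0.032 to 0.25, was the narrowest of the set. Sparcl1, a secreted matrix protein that promotes synapses, had 31.5, 38.2 and 29.1 in the controls and 35.7, 38.0 and 40.5 in the mutants (log2 difference 0.21 ± 0.11). Control replicate 2 alone overlapped the mutants.

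Apoe, the lipid carrier of astrocytes that microglia also make, had an FPKM of 83.9, 103 and 77.1 in the controls and of 82.8, 126 and 101 in the mutants. Its high libraries were replicate 2 in each group, and the log2 difference was 0.22 ± 0.18 (SE; limma adjusted p = 0.888). Tnc, the matrix protein tenascin-C of the progenitor zone, had means of 9.999 ± 0.792 and 11.5 ± 2.09, and Clu, the extracellular chaperone clusterin, 22.1 ± 2.05 and 23.5 ± 3.36 (SD, n = 3 each).

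Metallothioneins bind zinc and copper, and the 3 genes of the set lie side by side on chromosome 8 in the order Mt3, Mt2, Mt1. Mt1 had an FPKM of 20.6, 26.1 and 18.0 in the controls and of 25.0, 23.8 and 27.7 in the mutants. Mt2 had 14.7, 18.3 and 12.5 in the controls and 16.2, 16.4 and 23.9 in the mutants. In both genes control replicate 2 was the highest control, control replicate 3 the lowest, and mutant replicate 3 the highest library of all. Mt3, the brain form, had 49.3, 78.8 and 61.9 in the controls and 78.3, 55.4 and 60.1 in the mutants. Unlike the other two it was highest among the mutants in replicate 1, and it was the only one of the 31 genes of which that was so. The log2 differences were 0.25 ± 0.14 for Mt1, 0.29 ± 0.20 for Mt2 and 0.038 ± 0.21 for Mt3 (SE; limma adjusted p from 0.888 to 0.992). The longest transcripts of Mt1 and Mt3 shared no window of 50 bases with another annotated gene. For Mt2, 45.5% of the windows were shared with Gm45774, an antisense transcript at the same place.

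The upstream sequences of the neighbours Mt2 and Mt3 are shown as a description. Whether their letters bear on the levels in these libraries was not tested. Capitals mark the core of the metal response element, the site through which zinc acts on metallothionein genes, searched on both strands as TGCACNC and TGCGCNC. The sequences are the bases just before the RefSeq start on GRCm38.p6, plus strand, at chr8:94172368-94172617 for Mt2 and chr8:94152357-94152606 for Mt3.
Mt2: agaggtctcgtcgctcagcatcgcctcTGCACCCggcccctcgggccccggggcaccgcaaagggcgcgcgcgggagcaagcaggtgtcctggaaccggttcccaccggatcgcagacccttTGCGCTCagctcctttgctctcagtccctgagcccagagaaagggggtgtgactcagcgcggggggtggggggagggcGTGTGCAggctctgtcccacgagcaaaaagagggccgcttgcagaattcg
Mt3: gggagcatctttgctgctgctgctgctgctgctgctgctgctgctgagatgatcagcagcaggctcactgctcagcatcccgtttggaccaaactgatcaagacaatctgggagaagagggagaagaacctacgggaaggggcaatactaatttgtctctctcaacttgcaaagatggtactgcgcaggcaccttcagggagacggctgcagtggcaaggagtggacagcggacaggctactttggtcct

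Mt2 held 3 matches, which begin 223, 128 and 50 bases before the start, and Mt3 held none. Mt1 held 1 in the window before its RefSeq start, and 3 or more were found in 0.77% of all windows of this length. At least 1 match was found in 7 of the 37 windows of the glial genes (18.9%) and in 21.4% of all 32851 promoter windows. A match is a description of the letters and does not show that a site is used.

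Sp factors bind GC boxes, so GGGCGG was counted on both strands in the 250 bases before each RefSeq start. Of the 28 glial genes with a window, 14 had at least 1 match, and 17 of their 37 windows (45.9%) did, against 32.7% of all windows. The glial windows were also richer in G and C, with a median of 56.8% against 52.4%. Id4 held 5 matches (1.35% of all windows held 5 or more) and Slc6a11 held 3 (7.56% held 3 or more). They are shown because they carry the boxes, in capitals, before single annotated RefSeq starts, on GRCm38.p6, plus strand, at chr13:48260866-48261115 and chr6:114130991-114131240.
Id4: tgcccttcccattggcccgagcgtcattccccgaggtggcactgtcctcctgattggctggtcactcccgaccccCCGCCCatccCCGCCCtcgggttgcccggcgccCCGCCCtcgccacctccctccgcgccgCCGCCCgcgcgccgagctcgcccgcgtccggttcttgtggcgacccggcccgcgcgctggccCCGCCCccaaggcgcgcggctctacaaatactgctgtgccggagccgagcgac
Slc6a11: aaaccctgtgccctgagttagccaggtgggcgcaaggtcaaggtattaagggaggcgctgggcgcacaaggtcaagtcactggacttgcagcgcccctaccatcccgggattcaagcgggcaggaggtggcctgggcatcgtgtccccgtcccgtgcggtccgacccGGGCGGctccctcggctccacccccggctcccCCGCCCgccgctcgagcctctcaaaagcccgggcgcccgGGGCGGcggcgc

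Neither Id4 nor Slc6a11 passed the test, as given above. The RBPJ site GTGGGAA, through which Notch acts, was found in 3 of the 37 glial windows (8.11%) and in 5.42% of all windows. The 3 were windows of Aldoc, Tnc and Mt2. The palindromic NFI site was found in 0 of the 37 glial windows and in 0.0365% of all. No windows were matched for Aqp4, Clu and Sparcl1.

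Most of the 31 glial genes varied together between libraries of the same genotype. Control replicate 2 was the highest control for 26 of the 31 genes, whereas it was the highest for 33.4% of all genes tested. Control replicate 3 was the lowest control for 18 genes (27.2% of all genes). Among the mutants, replicate 1 was the lowest for 24 genes (27.0%), and replicate 2 the highest for 17 (32.7%). The highest mutant for 13 further genes was replicate 3, and these included Gfap, Aldoc, Glul, Vim, Tnc, Mt1 and Mt2. The median deviation of the 31 genes from their own means over the 6 libraries was -0.13, 0.12 and -0.16 (log2) in control replicates 1 to 3 and -0.041, 0.16 and 0.083 in mutant replicates 1 to 3. The deviation of control replicate 2 lay between those of mutant replicates 2 and 3. A list of 13 other radial glia genes did not follow this order. Its medians were 0.045, 0.033 and -0.15 in the controls and -0.14, -0.016 and 0.20 in the mutants. The median of 14 gliogenic transcription factors was likewise highest in control replicate 1 (0.11) and mutant replicate 3 (0.28).

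**Figure D3:**
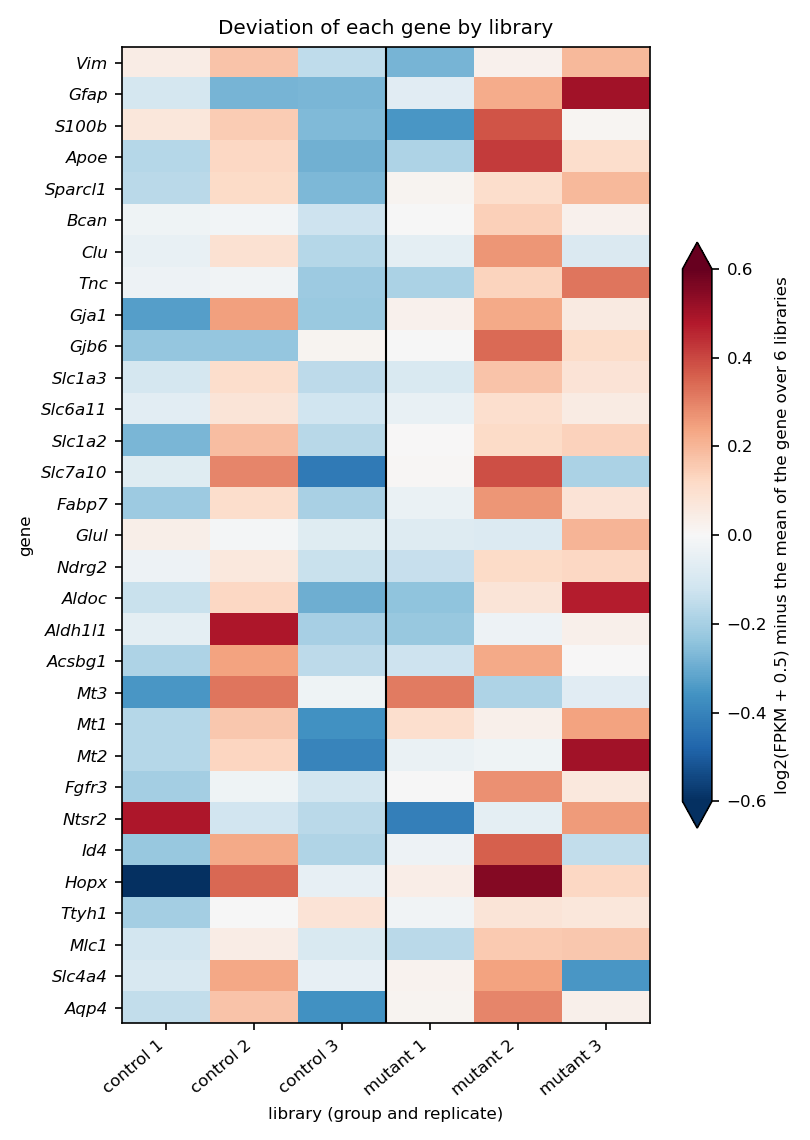
Deviation of log2(FPKM + 0.5) from the mean of each gene over the 6 libraries (colour), for the 31 genes grouped by role (rows) and each library (columns). Control replicate 2 and mutant replicates 2 and 3 are red for most genes, control replicates 1 and 3 are blue for most, and the line separates controls from mutants.

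Genes of radial glia and genes of maturing astrocytes had similar medians. For 7 radial glia and early genes (Fabp7, Vim, Tnc, Hopx, Id4, Ttyh1 and Slc1a3) the median log2 difference was 0.12, and for 12 genes of maturing astrocytes, with Aqp4, Gfap and Slc1a2 among them, it was 0.15. The summed FPKM of the early genes was 607, 749 and 620 in the controls and 670, 820 and 734 in the mutants. That of the maturing genes was 157, 175 and 145 in the controls and 151, 166 and 186 in the mutants. Both sums overlapped between the groups, and no test was made of either.

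The regulators of the glial fate held 1 gene that stood apart, Sox9, a transcription factor that starts gliogenesis and acts in radial glia and astrocytes. Sox9 had an FPKM of 14.3, 16.7 and 14.2 in the controls and of 6.23, 5.90 and 8.42 in the mutants. Every mutant lay below every control, and the highest mutant was at 8.42 against a lowest control of 14.2. The log2 difference was -1.09 ± 0.15 (SE) with a limma adjusted p of 0.238, so it did not pass on FPKM. On the authors' count columns Sox9 fell by 1.15 on the log2 scale and passed, with a limma adjusted p of 0.0195. Of the 14 gliogenic transcription factors, 0 passed on FPKM, and the median log2 difference was 0.17. Before adjustment 0 were higher and 1 (Sox9) was lower, against 2.65% and 2.99% of all genes. Sox8, a relative of Sox9, had means of 35.8 ± 7.82 and 28.8 ± 4.61 (SD, n = 3 each), with groups that overlapped. Nfic, a nuclear factor I gene, had a log2 difference of 0.22.

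The signalling lists around the glial genes showed no member past the threshold on FPKM. Of 15 Notch pathway genes 0 had an unadjusted limma p under 0.05, the median was -0.011, and 9 of the 15 estimates were below 0. Those with the smallest p had log2 differences of 0.20 for the ligand gene Jag1, 0.17 for Rbpj, the DNA-binding partner of Notch, and -0.085 and 0.10 for the ligand genes Dll1 and Dll4. Of 17 genes of cytokine and BMP signalling, 0 were higher and 1 was lower, against 2.65% and 2.99% of all genes. The 1 lower was the kinase gene Jak2, with means of 26.6 ± 0.876 and 24.2 ± 0.669 (SD, n = 3 each, limma adjusted p = 0.833). The median of that list was 0.0047. Of 13 further radial glia genes 0 were higher and 0 lower, with a median of 0.040. The estimates of 9 of these 13 genes were above 0. Those with the smallest p had log2 differences of -0.22 for Nes, the nestin filament of progenitors, 0.17 for Dbi, 0.23 for Prom1 and 0.20 for Gli3, and 0 of them passed.

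Markers of other cells in the dissection were read in the same libraries. The 11 microglia genes had a median log2 difference of 0.20, with a summed FPKM of 42.1 to 44.9 in the controls and of 44.3 to 51.7 in the mutants, and mutant replicate 2 the highest. Microglia also express Apoe. The 11 vessel genes had a median of 0.026 and sums of 73.2 to 86.3 and 71.9 to 87.1, and the 9 oligodendrocyte lineage genes a median of -0.030 and sums of 79.0 to 102 and 75.9 to 100.4. Cldn5 and Olig1 had the highest mean FPKM of the vessel and oligodendrocyte lists, and 0 genes of these 3 lists had an unadjusted limma p under 0.05. The 8 meningeal fibroblast genes, of which 4 were tested, had a median of 0.19, with sums of 3.33 to 4.202 and 4.57 to 5.85. Of the 4, Col3a1 had a control mean of 0.456, below the filter of 0.5, and was tested only because of its level in the mutants. Vimentin and the metallothioneins are also made by meningeal fibroblasts, and the part of any of these cell types in the glial estimates was not tested.

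Red blood cell genes and the glial genes were both highest in replicate 2 of each group by summed FPKM. The summed FPKM of 5 red blood cell genes was 403, 647 and 546 in the controls and 541, 958 and 549 in the mutants. The summed FPKM of the 31 glial genes was 1098, 1335 and 1092 in the controls and 1191, 1404 and 1316 in the mutants. Among the mutants both sums had the same order, replicate 2 above 3 above 1. Among the controls the glial sum was lowest in replicate 3, though close to that of replicate 1, and the red blood cell sum in replicate 1. The part of red blood cells in the glial values was not tested. Cell cycle genes were not highest in replicate 2 of either group. Their 6 genes summed to 60.1, 58.7 and 51.9 in the controls and to 50.1, 48.9 and 76.6 in the mutants, with mutant replicate 3 the highest. Of both lists 0 genes had an unadjusted limma p under 0.05, and the medians were 0.27 and -0.025.

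Genes of the ventricle wall were low, and genes of the neighbouring cortex varied widely between libraries. Choroid plexus genes summed to 1.85 to 2.79 in the controls and 2.92 to 3.08 in the mutants, with 1 of 7 listed at 0 in every library. Of the 2 that were tested, Ttr, which encodes transthyretin, had an unadjusted p under 0.05 with a higher level, as did 2.65% of all genes (0.118, 0.867 and 0.192 against 1.48, 1.04 and 1.54 FPKM; limma adjusted p = 0.795). The control mean of Ttr, 0.392, lies below the filter of 0.5, so Ttr was tested only because of its level in the mutants. The other tested gene of this list, Clic6, was estimated lower, at -0.34 (limma adjusted p = 0.888), and its groups overlapped. Its mean FPKM was 0.845 for control libraries against 0.559 for mutant libraries. Of the 7 choroid plexus genes, 4 had estimates above 0 and 2 below. The higher mutant sums rested on Ttr and do not show a rise of the whole list. Ependymal genes summed to 1.99 to 2.57 and 2.096 to 2.85, with 1 of 7 at 0 in every library and a median of 0.0079. The choroid plexus median was 0.061. Cortical glutamatergic genes, with a median of 0.58, summed to 22.3, 24.3 and 8.25 in the controls and to 36.4, 8.77 and 59.3 in the mutants, with mutant replicates 1 and 3 above mutant replicate 2 by these sums. Their part in the glial values was not tested. Of 10 striatal projection neuron genes, 1 was higher before adjustment (Drd1) and 4 were lower, Adora2a, Foxp1 and Penk among them. Of all genes 2.65% were higher and 2.99% lower. Adora2a, the adenosine receptor of indirect pathway neurons, was the 1 that passed (limma adjusted p = 0.00852), and the median of the list was -0.096.

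**Figure D4:**
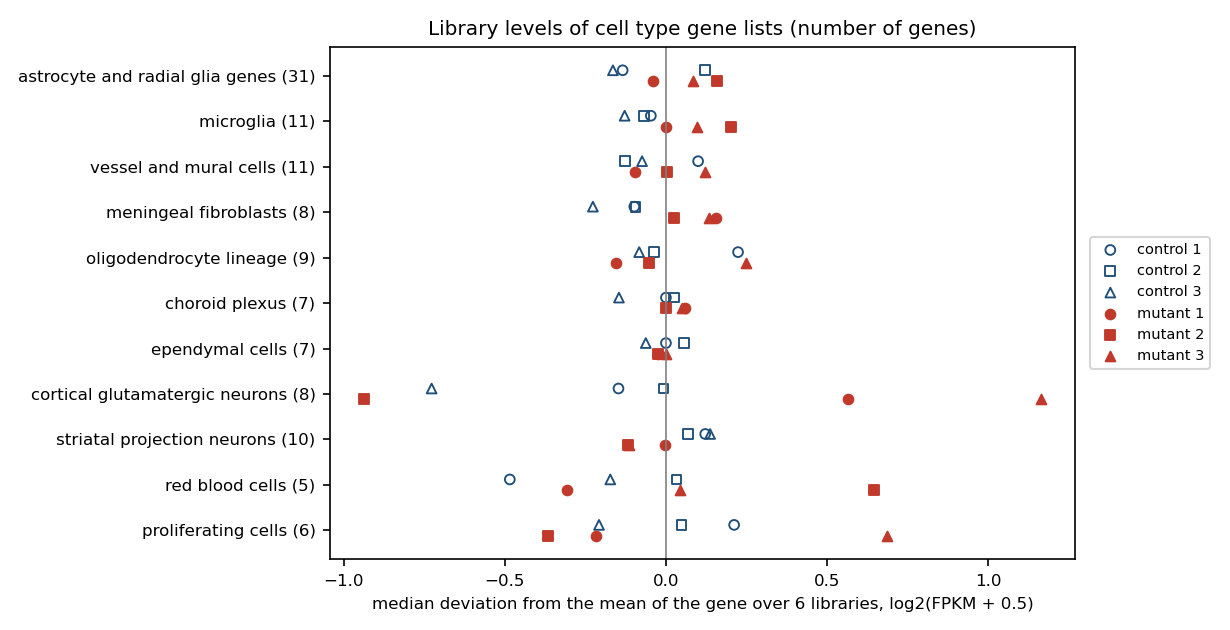
Median deviation, on the log2(FPKM + 0.5) scale, of each list of cell type genes in each library from the mean over the 6 libraries; open blue symbols are controls, filled red symbols are mutants. Control replicate 2 and mutant replicate 2 are the high libraries for the astrocyte and radial glia genes, while the cortical list spreads most, with mutant replicate 3 highest and mutant replicate 2 lowest.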

How the data were processed

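Per the file headers, the authors deposited 1 table with an FPKM and a count column for each library. Per the submitters' processing notes, TopHat (version not given), Cufflinks 2.1.1 and GRCm38.p4 were used. The annotation release, strand use and handling of multiply mapped reads were not given in the sources. The deposited count columns are not whole and were treated as a signal. In them 98.7 to 98.9% of values from 0.01 to below 20 times 1 library-specific step lay within 0.1 of a whole multiple of that step. Division by the step gave the estimated fragments, and no count test was run.

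GENCODE M21 gave symbols for 46483 of 47062 identifiers, and RefSeq (GRCm38.p6) the promoters. The 6 libraries were fitted with limma 3.58.1 in R 4.3.3 on log2(FPKM + 0.5), with a variance trend, for genes averaging at least 0.5 FPKM. Two-sided p-values were adjusted by Benjamini-Hochberg over 16666 genes, with a threshold of 0.05. Log2 differences understate those of low genes. Correlations of log2 values between pairs of libraries ran from 0.824 to 0.859, so no library was a copy of another. The members and lists were chosen with earlier results of these data known. Named were all members, Sp9, and from each other list the genes past the threshold, up to 4 others with the smallest p and, for cell types, the gene with the highest mean. Some genes that this rule names are not reported here. Alternatives changed the pseudocount (0.1 or 1), the FPKM minimum (none or 1), the normalization (quantile or median-ratio) and the fit (robust, or the replicate number as a block). Others used the authors' count columns, as log2(value + 1), or as a filter, with a minimum mean of 10, or left out each library. The steps were tested on simulated data.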

Additional observations from a re-analysis of the deposited data

How the results depend on the processing

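No glial gene passed an adjusted p of 0.05 with limma under any of the 16 alternatives; the smallest adjusted p was 0.601. Glial genes higher at an unadjusted p under 0.05 numbered 0 as reported, 1 with no filter on mean FPKM (Gjb6), 1 with the authors' count columns (Gfap), 1 with the filter on those columns (Gfap) and 0 to 5 with 1 library left out; the number lower was 0 in each. Shares of all genes were not computed for the fits with no filter or with the filter on the authors' count columns. The counts of those fits thus have no background to be read against. Gjb6 rests on an estimated 0, 0 and 1 fragments in the controls and 3, 3 and 4 in the mutants. Gfap met the FPKM minimum, which that count filter keeps, only because of its level in the mutants. The median log2 difference of the glial genes ran from 0.071 to 0.21 with 1 library left out. Genes called over the whole table numbered 10 as reported, 23 on the authors' count columns and 12 to 23 with 1 library left out.

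Sp9 was lower in each fit. Its log2 difference was past the threshold with a pseudocount of 0.1 (-1.11), the higher FPKM minimum (-1.08), limma in its robust form (-1.08), the filter on the authors' count columns (-1.08) and those columns themselves (-1.32), and ran from -1.16 to -1.02 with 1 library left out (past the threshold without mutant replicate 3, adjusted p = 0.0382). Over all alternatives, the replicate block included, its adjusted p ran from 0.00635 on the authors' count columns to 0.579 with the block. For Sox9 the adjusted p ran from 0.0195 on the authors' count columns to 0.850 with the replicate block.

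Of 308 glial estimates under alternatives that kept all libraries, 2 changed sign: S100b with quantile normalization (-0.032) and Aldh1l1 on the authors' count columns (0.0017). With 1 library left out, 12 genes changed sign at least once. Their ranges were -0.29 to 0.056 for Aldh1l1, -0.063 to 0.080 for Glul, -0.098 to 0.21 for S100b, -0.30 to 0.067 for Ntsr2, -0.042 to 0.32 for Slc7a10, -0.00051 to 0.14 for Ttyh1, -0.15 to 0.089 for Vim, -0.032 to 0.15 for Clu, -0.025 to 0.21 for Acsbg1, -0.19 to 0.10 for Slc4a4, -0.030 to 0.26 for Id4 and -0.13 to 0.21 for Mt3. The cause was not tested.

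With the replicate block 5 genes were called over the whole table and 2 glial genes (Fabp7 and Fgfr3) were higher at an unadjusted p under 0.05. The share of all genes at that p was not computed for this fit, so the count has no background to be read against. The replicate numbers were not treated as a pairing: deviations of same-numbered libraries had correlations of 0.00246, 0.0372 and 0.0433, and control replicate 1 correlated best with mutant replicate 2 (0.0328). Depth limits Gjb6, S100b, Hopx, Ntsr2 and Gfap most, which rest on 0 to 53 fragments per library.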
